A study of Homo sapiens with 16 samples.

Results

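In HT29 colon cancer cells, 345 regions of the genome held p65 both with and without ERβ, and held none by the same limits in SW480 colon cancer cells. They are part of 6238 regions that were bound in at least 1 of the 4 groups of the study. These HT29-specific regions were chosen by the p65 signal itself. The genome was laid out in bins of 200 bp on chromosomes 1 to 22 and X, and a bin was bound in a group when at least 2 of its 3 ChIP libraries had a mean signal of at least 2, at least 4 times the input of the group (taken as no less than 0.35) and at least 4 times the surrounding 10 kb. Bound bins within 200 bp of each other were joined over the 4 groups, and a region was kept when it was bound in HT29 mock and HT29 ERβ and in neither SW480 group. The difference between the lines at these regions was therefore fixed by the selection, and it is described below with no test. Without HT29 replicate 1 in either group, 146 of the 345 regions still met the limits. Both remaining HT29 libraries of a group then had to pass, which is stricter than 2 of 3. In the same way 223 stayed without replicate 2 and 240 without replicate 3. For comparison, 572 regions were bound in all 4 groups (the core regions) and 308 were bound in both SW480 groups and in no HT29 group (the SW480-specific regions).

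HT29 and SW480 are established human colorectal cancer lines. Per the labels, each was stably transfected either with an empty vector (mock) or with ERβ, the estrogen receptor that the ESR2 gene encodes, and all cells were given TNFα at 30 ng/ml for 30 min before p65 was pulled down, so there was no group without TNFα. Per the study's methods the cells were grown under blasticidin, moved to charcoal-stripped serum the day before, not given estradiol, and crosslinked with DSG and formaldehyde. Each of the 4 groups had 3 ChIP libraries and 1 input, 16 tracks in all, and the methods call the 3 libraries biological replicates. ERβ was supplied by a construct, and whether a line was 1 clone is not given in the sources used here. The signal is the tag density per base, which the authors scaled to 10 M tags and fragments of 100 bp (M, a count of 1e6). The depth of a library cannot be read from such tracks, so a low signal means that p65 was not detectable by these limits, not that it was absent.

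The labels of ERβ status were checked at ESR2 first, because a construct that carries coding exons raises their signal in the chromatin itself. The signal in coding exons was 2.35 to 7.11 times that in the rest of the gene in the 6 ERβ ChIP libraries and 1.08 to 1.57 times in the 6 mock ChIP libraries. By the same measure the ERβ inputs had 2.12 (HT29) and 1.77 (SW480), and the mock inputs 1.16 and 1.53. HT29 replicate 1 gave higher signal than replicates 2 and 3 in both groups, and SW480 ERβ replicate 1 gave lower signal than the other two, at the HT29-specific regions and at the core regions alike.

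NFκB is a family of transcription factors that inhibitors hold in the cytoplasm of resting cells. TNFα sets off the kinases that mark these inhibitors for destruction, and the p65 (RELA) subunit then enters the nucleus with its partner, binds κB sites in DNA and raises the expression of inflammatory, survival and feedback genes. Which κB sites are occupied differs between cell types, since other factors, such as AP-1 and C/EBP proteins, shape the chromatin that p65 can reach. In the colon epithelium this pathway is best known for its part in inflammation and in tumors that arise from it.

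The sequences that carry the patterns below are shown here, each as the plus strand of GRCh38 in 200 bp about the summit (the middle of the 200 bp with the highest mean signal over the 12 ChIP libraries), and each named by the protein-coding gene with the nearest transcription start site (TSS). Matches to κB and AP-1 are in capitals. The first set holds a pair of the 10 regions with the highest HT29 signal, each with a κB match near its middle: PFDN4 at chr20:54267781-54267980 and DUSP16 at chr12:12539461-12539660.
PFDN4: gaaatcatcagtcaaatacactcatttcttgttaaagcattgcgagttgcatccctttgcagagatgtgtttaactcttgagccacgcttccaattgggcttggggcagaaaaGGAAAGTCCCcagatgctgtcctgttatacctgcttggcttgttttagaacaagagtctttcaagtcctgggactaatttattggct
DUSP16: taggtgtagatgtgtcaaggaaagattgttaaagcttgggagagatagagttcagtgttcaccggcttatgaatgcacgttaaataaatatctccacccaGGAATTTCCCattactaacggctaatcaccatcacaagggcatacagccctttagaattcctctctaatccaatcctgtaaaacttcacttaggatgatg

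PDE8A, at chr15:85164911-85165110, stands for 12 HT29-specific regions that share most of their sequence. It has no κB match, and the word closest to one is described below.
PDE8A: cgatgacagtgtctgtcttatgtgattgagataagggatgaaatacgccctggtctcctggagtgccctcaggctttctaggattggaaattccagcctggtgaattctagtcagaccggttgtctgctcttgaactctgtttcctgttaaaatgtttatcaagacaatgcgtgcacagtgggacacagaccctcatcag

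The next region lies at the chemokine gene CXCL16, at chr17:4738541-4738740, where overlapping κB matches make a run of capitals longer than 1 site.
CXCL16: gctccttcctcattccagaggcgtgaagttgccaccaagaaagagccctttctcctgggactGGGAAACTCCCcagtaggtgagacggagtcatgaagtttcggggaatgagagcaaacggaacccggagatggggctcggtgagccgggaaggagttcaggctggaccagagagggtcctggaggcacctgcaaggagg

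The last set shows regions without an exact κB match: NXT2 at chrX:109537401-109537600, PTGS2 at chr1:186578441-186578640, and KCTD1 at chr18:26487531-26487730, which has an AP-1 match. Each still holds a word that misses the κB consensus by 1 base: gaaagtttcc in NXT2, ggaaaatcct in PTGS2 and gggaaatacc in KCTD1. How often such near words occur was not counted.
NXT2: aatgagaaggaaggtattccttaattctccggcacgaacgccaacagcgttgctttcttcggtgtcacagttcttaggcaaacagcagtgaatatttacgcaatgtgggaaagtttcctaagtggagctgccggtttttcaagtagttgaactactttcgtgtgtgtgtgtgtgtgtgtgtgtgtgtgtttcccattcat
PTGS2: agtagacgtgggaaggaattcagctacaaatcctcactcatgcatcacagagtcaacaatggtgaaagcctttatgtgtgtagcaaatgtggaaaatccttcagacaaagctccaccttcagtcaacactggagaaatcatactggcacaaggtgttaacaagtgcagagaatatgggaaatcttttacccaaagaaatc
KCTD1: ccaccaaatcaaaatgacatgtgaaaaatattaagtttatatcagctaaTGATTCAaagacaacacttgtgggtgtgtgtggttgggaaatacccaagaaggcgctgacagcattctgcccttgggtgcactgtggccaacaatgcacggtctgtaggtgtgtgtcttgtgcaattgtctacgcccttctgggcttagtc

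The HT29-specific regions were narrow peaks. Of the 345, 152 covered a single bin, 193 covered more, and the longest was 800 bp. In 200 bp about the summit, the median signal of the 345 regions was 7.08, 3.13 and 3.46 in HT29 mock replicates 1 to 3, and 5.80, 3.01 and 2.71 in HT29 ERβ. In SW480 mock it was 0.545, 0.570 and 0.613, and in SW480 ERβ 0.724, 1.43 and 1.33, beside 0.375 to 0.474 in the 4 inputs. The SW480 mock medians were thus a little above input, and those of SW480 ERβ replicates 2 and 3 further above it. Over the 6 HT29 libraries the mean signal of a region ran from 2.08 to 18.6 with a median of 4.16, and over the 6 SW480 libraries from 0.220 to 6.37 with a median of 0.940. The ratio of the 2 means had a median of 5.07 and ran from 1.04 to 32.2, and at 236 of the 345 regions all 6 HT29 libraries lay above all 6 SW480 libraries. These differences are what the selection asked for.

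**Figure D1:**
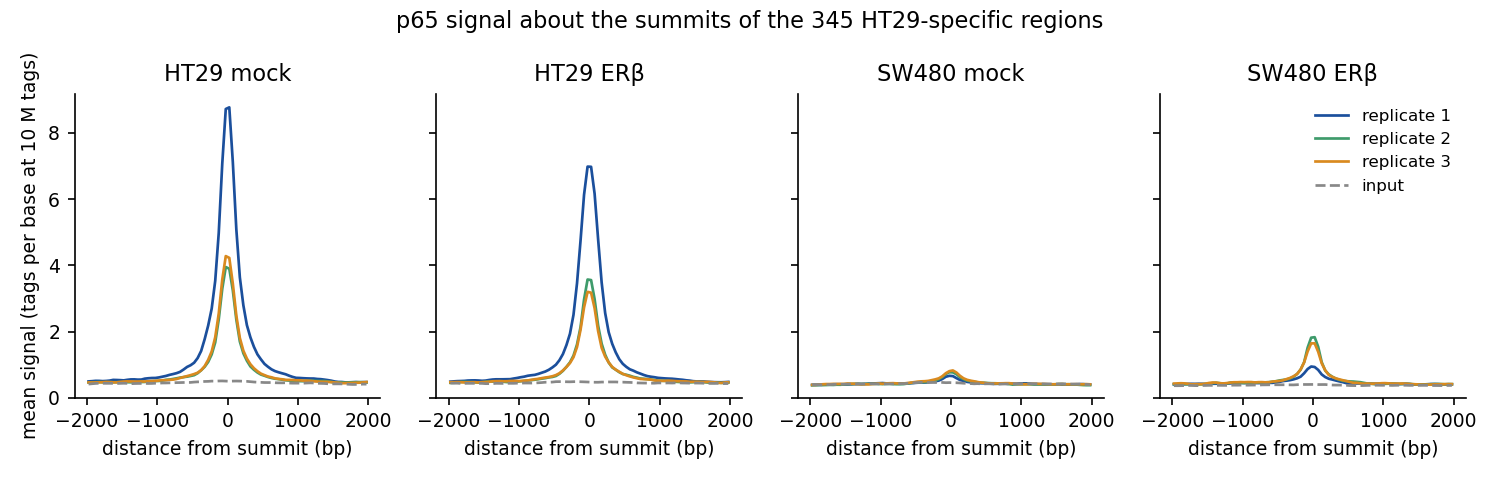
Mean p65 signal (tags per base at 10 M tags) of the 345 HT29-specific regions against the distance from the summit in bp, with 1 line for each replicate and a dashed line for the input of each group. Both HT29 panels show a sharp peak, highest in replicate 1, up to 8.77 in HT29 mock, while SW480 mock reaches 0.665 to 0.828 and SW480 ERβ 0.946 to 1.83, beside at most 0.510 in an input.

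In HT29 the regions were weaker than the core regions, and the gap was alike in all 6 libraries. The core regions had median signals of 9.88, 4.87 and 5.19 in HT29 mock and 8.22, 4.21 and 4.04 in HT29 ERβ. On the scale of log2(signal + 1), the mean of the HT29-specific regions lay 0.39 to 0.47 below that of the core regions in each HT29 library. In SW480 the gap was 1.93 to 2.03 in the mock libraries and 2.02 to 2.47 in the ERβ libraries. In SW480 the core regions had medians of 5.02 to 5.59 in mock and 6.16 to 12.3 in ERβ. The rule asked for p65 in both SW480 groups at the core regions and in neither at the HT29-specific regions. The gap in SW480 was therefore fixed by the selection.

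The region with the highest HT29 signal lay 440290 bp downstream of the start of LRATD2, in an intron of an annotated transcript on chromosome 8. Its signal was 32.4, 15.3 and 16.3 in HT29 mock, 26.9, 10.5 and 10.1 in HT29 ERβ, 0.38, 0.55 and 0.35 in SW480 mock, and 1.12, 2.21 and 2.41 in SW480 ERβ. The input there was high in HT29 too, at 2.24 (mock) and 1.51 (ERβ) against 0.270 and 0.353 in SW480, and the input over 100 kb about the summit was 1.80 higher in HT29 on the log2 scale. A region 93874 bp downstream of POU5F1B, on the same chromosome, had the same feature, with an input difference of 2.06. Its p65 signal was 17.1, 10.1 and 8.21 in HT29 mock, 16.7, 8.03 and 7.85 in HT29 ERβ, and no more than 0.954 in any SW480 library. The part that copy number has in the signal of these regions was not tested.

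Away from that chromosome, the highest signal lay in an intron of an annotated transcript 59794 bp downstream of PFDN4, which encodes a subunit of the chaperone prefoldin. It was 23.7, 12.5 and 13.4 in HT29 mock (16.5 ± 6.23, SD, n = 3), 19.5, 9.06 and 9.44 in HT29 ERβ (12.7 ± 5.94, SD, n = 3), and 0.584 to 2.01 over the 6 SW480 libraries. The lines did not overlap there. EHF, which encodes an ETS factor of epithelial cells, had its region in the promoter, 72 bp upstream of the start. The values were 19.4, 9.98 and 10.6 in HT29 mock, 15.6, 7.06 and 7.92 in HT29 ERβ, 1.55, 1.00 and 1.21 in SW480 mock, and 1.48, 2.57 and 3.68 in SW480 ERβ. The inputs of the lines were even at EHF, with a log2 difference of 0.0012 over 100 kb. DUSP16, a phosphatase of MAP kinases, had a region in an intron, 21516 bp from the start, at 19.3, 7.97 and 9.21 in HT29 mock, 14.7, 7.34 and 6.20 in HT29 ERβ, and 0.765 to 3.08 in SW480.

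The widest gap between the lines, 32.2-fold, belonged to a region 101882 bp downstream of PTGS2, the gene of the cyclooxygenase that TNFα and other inflammatory signals induce. Its signal was 17.8, 8.14 and 7.90 in HT29 mock, 15.1, 6.30 and 7.47 in HT29 ERβ, 0.320, 0.380 and 0.140 in SW480 mock, and 0.250, 0.520 and 0.340 in SW480 ERβ. All SW480 values were thus at the level of the inputs, 0.295 to 0.694. As the sequence above shows, the region has no exact κB match within 200 bp, though it holds ggaaaatcct, 1 base from the κB word GGAAAATCCC. The rest of the 10 strongest regions lay near PDE8A and TRHR, which belong to a shared sequence described below, WFDC11 and NXT2. NXT2, which encodes a factor of RNA export from the nucleus, had 19.3, 6.22 and 9.54 in HT29 mock and 14.1, 7.64 and 8.16 in HT29 ERβ at 383 bp from its start.

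At the edge of the selection the values were close to each other. Just inside lay regions at UGT1A6 (1.00 times the limit in HT29 mock) and ROCK2 (1.001 times that in HT29 ERβ). BCL9L was inside too, since it stood at 0.9968 times the limit in SW480 ERβ. Just outside lay regions at SLC4A3 (0.9967 times the limit in HT29 ERβ), ADORA2A and ANXA11 (1.001 and 1.003 times the limit in SW480 ERβ). SLC4A3 missed in HT29 ERβ, and ADORA2A and ANXA11 were bound in SW480 ERβ as well. BCL9L, the gene of a Wnt coactivator, shows what the SW480 side of the limits can hide. Its region had 14.4, 6.72 and 7.28 in HT29 mock, 9.5, 6.17 and 5.56 in HT29 ERβ, 2.08, 3.15 and 4.47 in SW480 mock, and 6.79, 9.64 and 12.1 in SW480 ERβ. The SW480 ERβ libraries overlapped the HT29 libraries there, and the same held at NFAT5 and at ENO3, the other regions with the highest SW480 signal (means of 3.74 and 3.52 over SW480, against 4.25 and 3.67 over HT29).

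How far the regions were empty in SW480 depended on the group. When the limits for SW480 were relaxed to a mean of 1 and a 2-fold excess, 182 of the 345 regions (52.8%) were bound in SW480 ERβ and 42 (12.2%) in SW480 mock. Bound in SW480 ERβ alone were 143 regions, in SW480 mock alone 3, in both 39, and in neither 160 (46.4%). The median ratio of HT29 to SW480 was 7.85 at these 160 and 3.27 at the 182. SW480 signal made this split and also enters the ratio, so the direction of that difference was fixed in advance. Their HT29 medians were near each other, at 4.27 and 4.06.

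The question of the ERβ comparison in HT29 was whether ERβ moved p65 at regions that it left bound. At all 345 regions the test gave no call. In limma on log2(signal + 1), two-sided and with Benjamini-Hochberg adjustment over all 6238 regions, 0 of the 345 had an adjusted p under 0.05 in either direction, where 0% of all regions were called higher and 0% lower. No HT29-specific region reached an unadjusted p of 0.05, against 119 of all regions (103 lower and 16 higher with ERβ), and the lowest adjusted p was 0.995. The median log2 difference, ERβ minus mock, was -0.21 at the HT29-specific regions, -0.17 at all regions and -0.24 at the core regions, and 305 of the 345 differences were below 0. The selection asked for p65 in both HT29 groups, which limits large losses and gains.

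HT29 mock replicate 1 and ERβ replicate 1 were both high, and their deviations from the group means correlated over all regions (0.587). The pairing of replicates 2 and 3 by number is weak, since mock 2 correlated with ERβ 3 (0.281) as much as with ERβ 2 (0.227). The calls with the block below rest on that pairing. With the replicate number as a block, 12 of the 345 regions were lower with ERβ at an adjusted p under 0.05 in limma and 0 were higher, beside 1.99% of all regions lower and 0.0481% higher. Only 1 of the 345 regions had 3 ERβ libraries below all 3 mock libraries (3.93% of all regions) and 0 had them above (1.11% of all regions). When each library was also divided by its mean at the core regions, the median was 0.01 and the block gave 0 calls among the 345, so none of the 12 was called relative to the core regions. Leaving out 1 library at a time, the median ran from -0.48 (without ERβ replicate 1) to 0.07 (without mock replicate 1), and it was -0.19 without replicate 1 of both groups, where 4 of the 345 were called lower (0.561% of all regions).

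Of the 12, a region 91212 bp downstream of DYRK2, a protein kinase gene, fell the most. Its signal was 9.08, 5.09 and 4.12 in mock and 5.18, 2.51 and 1.81 in ERβ, each lower than the mock library of the same number. The log2 difference was -0.79 ± 0.16 (SE, adjusted p = 0.00965 in limma with the block, 0.995 without). At FAR2, which encodes a fatty acyl-CoA reductase, the values were 15.2, 6.24 and 5.73 in mock and 9.05, 3.36 and 3.01 in ERβ, a log2 difference of -0.72 ± 0.15 (SE, adjusted p = 0.0077 in limma with the block). SGK1, a kinase induced by serum and glucocorticoids, had a region 61169 bp upstream with 12.5, 6.94 and 6.18 in mock and 8.53, 3.54 and 3.98 in ERβ. In all 3 of these the groups overlapped only through the high replicate 1. The other 9 lay near KCTD1, MRTFB, PDC, SPDYE17, PSMA6, SERTAD2, OTOGL, IFNGR1 and LRATD2, with log2 differences of -0.67 to -0.47 and adjusted p values with the block of 0.0188 to 0.0497 in limma. SPDYE17 belongs to a gene family of near-identical copies, where unique alignment limits which reads count, so its value is uncertain. IFNGR1, the interferon gamma receptor gene, had 17.6, 6.81 and 6.81 in mock and 12.9, 4.84 and 4.25 in ERβ, 18152 bp upstream of its start.

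**Figure D2:**
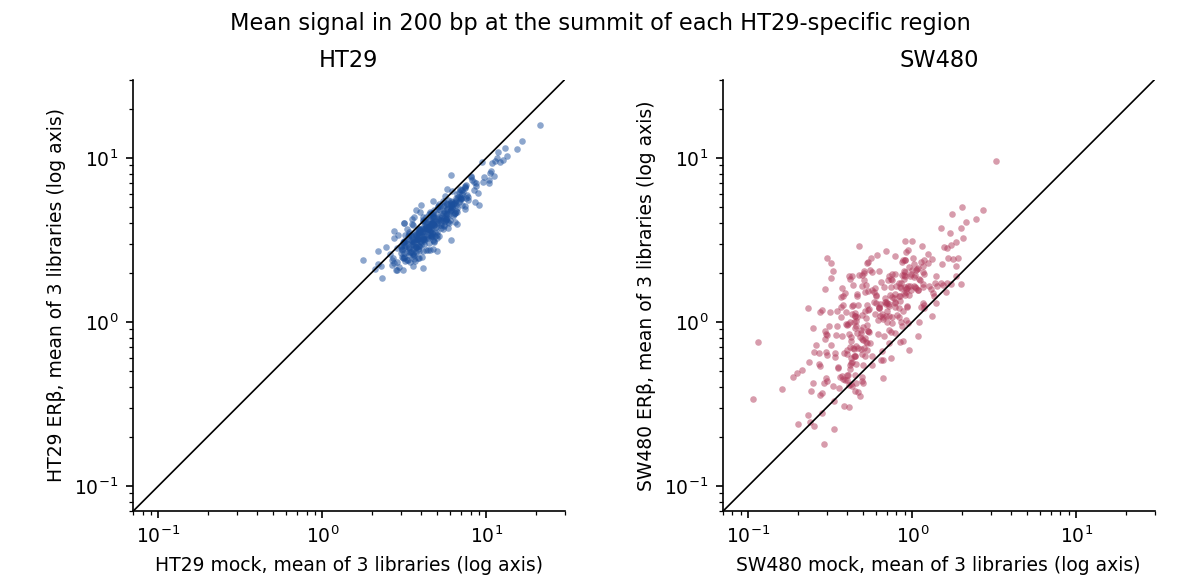
Mean signal of the 3 ERβ libraries against that of the 3 mock libraries at each of the 345 HT29-specific regions, in HT29 (left) and SW480 (right), on log axes, with a line where both are equal. In HT29 the points run along and mostly just under the line (305 of 345 log2 differences below 0), and in SW480 at a lower level and mostly above it (312 of 345 above 0).

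In SW480 the same regions were not bound by the limits, and 312 of the 345 log2 differences, ERβ minus mock, were above 0. All regions are no like comparison here. Of these 6238, 3230 were bound in SW480 ERβ alone, and such regions raise the share called higher by the rule itself. In limma 96 of the 345 were higher in SW480 ERβ than in SW480 mock at an adjusted p under 0.05 and 0 were lower, against 53.7% of all regions higher and 0.016% lower. Of the 96, 77 were bound in SW480 ERβ by the relaxed limits, but the call and these limits use the same SW480 ERβ libraries. The median log2 difference was 0.37, against 0.74 at all regions and 0.66 at the core regions, and at 116 of the 345 all 3 ERβ libraries lay above all 3 mock libraries (53.8% of all regions), with 1 region the other way (0.0802%). With the replicate number as a block, 125 were higher (68.8% of all regions) and 0 lower (0.0481%). The limits kept both SW480 groups low, so a large gain would have removed a region from the set.

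At the core regions too, the SW480 median was above 0. Divided by the mean of each library at the core regions, the median was 0.04 at the HT29-specific regions and 0.23 at all regions, and 17 of the 345 were called higher (15.5% of all regions) and 0 lower (0.625%). Without SW480 ERβ replicate 1, the weak library, 210 of the 345 were called higher, beside 88% of all regions, and without SW480 mock replicate 1 the count was 39, beside 25.1%. Without replicate 1 of both groups it was 167, beside 83%. With the block and the scaling 26 were higher, beside 23.3% of all regions, and 1 was lower, beside 1.54%. The promoter of IL15, the gene of a cytokine that sustains lymphocytes, gives an example 55 bp upstream of its start. The signal there was 0.280, 0.340 and 0.340 in SW480 mock and 1.10, 3.01 and 1.42 in SW480 ERβ, so that the groups did not overlap, with a log2 difference of 1.05 ± 0.24 (SE, adjusted p = 0.000174 in limma). In HT29 the same promoter had 5.81, 2.62 and 2.86 in mock and 4.96, 2.71 and 1.84 in ERβ, where the groups overlapped. The input over 100 kb was 1.18 higher in HT29 there on the log2 scale.

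The ERβ effect was compared between the lines by the interaction term of limma over the 12 ChIP libraries, a test chosen after the data were seen. Larger in a line means here that the signed log2 effect, ERβ minus mock, was higher there, not that it was stronger. The effect was larger in SW480 at 21 of the 345 regions and larger in HT29 at 0, beside 31.3% of all regions larger in SW480. That fit had no replicate block. With the replicate number within a line as a block, it was larger in SW480 at 149 of the 345, beside 73.7% of all regions. After each library was divided by its mean at the core regions, it was larger in SW480 at 2 of the 345 without the block, beside 6.62% of all regions, and at 9 with it, beside 12.2%. With the block and that division it was larger in HT29 at 2 of the 345, beside 0.593% of all regions. Regions bound in SW480 ERβ alone raise the shares of all regions larger in SW480, and the limits kept the 345 low there. The 345 and all regions are therefore not a like comparison.

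The HT29-specific regions were next compared with lists of genes. The lists count a gene as having a region when a summit lies between 50 kb before and 2 kb past a TSS. Of 31 genes of NFκB subunits, inhibitors and feedback, 0 had an HT29-specific region and 20 had a core region. Over all 19618 protein-coding genes, 281 (1.43%) had an HT29-specific region and 727 (3.71%) a core region, so a count of 0 in a list of this size is near the share of all genes. The nearest case was NFKB1, the gene of the p50 subunit, with a region 61869 bp upstream of its start, beyond that range, at 7.85, 3.63 and 3.27 in HT29 mock, 5.26, 3.55 and 2.55 in HT29 ERβ, and 0.140 to 3.92 in SW480. No gene had an HT29-specific region among 22 AP-1 subunits and MAP kinase phosphatases (DUSP16 is in this list, and its region lay farther into the gene than the range allows), 18 mesenchymal genes and 14 prostaglandin genes.

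Chemokines and cytokines had 3 of 31 genes with an HT29-specific region (9.68%), the same number with an SW480-specific region, and 11 with a core region. Beside IL15 these were IL17C, a cytokine made by epithelial cells, and CXCL16, a chemokine that also exists as a membrane protein. The IL17C region had 10.2, 3.82 and 5.45 in HT29 mock, 10.3, 2.54 and 4.25 in HT29 ERβ, and 0.140 to 0.453 in SW480, with no overlap between the lines. ZC3H18 has the TSS nearest to it, 7562 bp away. At CXCL16, in a promoter 504 bp from the nearest coding start, the values were 4.77, 2.67 and 2.12 in HT29 mock, 4.25, 2.74 and 2.31 in HT29 ERβ, 0.803, 1.04 and 1.12 in SW480 mock, and 1.42, 3.07 and 1.43 in SW480 ERβ. There SW480 ERβ replicate 2 overlapped the HT29 libraries.

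In the other lists of pathways with any, 1 or 2 genes had an HT29-specific region, 3.45% to 7.69% of a list beside 1.43% of all protein-coding genes. Counts this small, that of the chemokines and cytokines included, cannot set a list apart. TNFAIP8, a survival gene that TNFα induces and the only 1 of 29 apoptosis and survival genes, had 7.36, 3.12 and 3.26 in HT29 mock, 6.03, 2.24 and 1.74 in HT29 ERβ, 1.02, 0.869 and 0.330 in SW480 mock, and 1.27, 1.67 and 1.96 in SW480 ERβ, in an intron. The lines overlapped there. EHF was 1 of 29 colon and epithelial transcription factors, KRT7 and KRT80 shared a region and were 2 of 40 epithelial genes, and the integrin gene ITGAV was 1 of 26 adhesion and protease genes. HLF was 1 of 21 clock genes, of which 5 had a core region, IFNGR1 was 1 of 26 interferon genes, and SMAD3 and EGFR were 2 of 26 genes of the EGFR, Wnt and TGF-beta pathways. SMAD3, which passes on TGF-beta signals, had 9.68, 4.56 and 6.33 in HT29 mock and 7.77, 4.31 and 5.28 in HT29 ERβ, against 0.340 to 1.93 in SW480. At EGFR, the growth factor receptor gene, the HT29 values of 1.77 to 6.15 overlapped the SW480 values of 1.10 to 3.11. Of 13 genes that the study names in its account of p65 in HT29 or in both lines, TNFAIP8 and CXCL16 had an HT29-specific region (15.4%). That list was chosen by the study on these samples and is not independent evidence.

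Counted within 100 kb of each other they made 332 loci, of which 319 held 1 region and 13 held a pair. The pairs with the highest summed HT29 signal were WFDC10A and WFDC11, 29830 bp apart in a cluster of protease inhibitor genes on chromosome 20, a pair 44430 bp apart near C1orf105, and BORCS5 and DUSP16, 89840 bp apart. The median distance to a core region was 1517120 bp. Within 100 kb of a core region lay 34 of the 345 (9.86%), against 16.1% of core regions near another of their kind. The SW480-specific regions had a like median, 1471940 bp, and 12.7% within 100 kb. By chromosome, the HT29-specific share of all regions was 13.3% on chromosome 4 (30 of 225) and 9.35% on chromosome 6 (30 of 321), and 1.60% on chromosome 14 (3 of 188). On chromosome 4, 6 of the 30 regions, NFKB1 and IL15 among them, had over 100 kb a log2 ratio of HT29 to SW480 input above 1. There were 10 such regions on all chromosomes. The median of this ratio at all regions was 0.14 on chromosome 4, 0.0052 on chromosome 6 and -0.48 on chromosome 14. It was 0.42 on chromosome 18, where the HT29-specific share was only 4%, so share and input did not move together throughout. The part of the input in the count of regions was not tested.

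The regions were mostly distal. Promoters, here the stretch between 1 kb before and 100 bp past any TSS, held 57 of 345 (16.5%, 95% Clopper-Pearson interval 12.8 to 20.9%), against 40.7% of core regions (36.7 to 44.9%) and 14% of SW480-specific regions (10.3 to 18.3%). Introns held 163 (47.2%), stretches between genes 114 (33.0%) and exons 11 (3.19%). The interval of the core regions lay apart from the other intervals. Among the 146 regions that stayed without HT29 replicate 1, promoters held 19.9% (13.7 to 27.3%). The median distance to the nearest coding TSS was 23388 bp, against 3992.5 bp for core and 30580.5 bp for SW480-specific regions, and 129 of 345 (37.4%) lay over 50 kb away. The sequence was poorer in G and C, with a median of 47% against 59.5% at core and 53% at SW480-specific regions, and 4.93% held 10 or more CpG in 200 bp, against 39.9% of core and 13.0% of SW480-specific regions. Outside promoters these shares were 3.47%, 17.1% and 8.68%, and the median G and C content was 46.5%, 54% and 52%. HT29 signal was alike over positions, with medians of 4.23 in promoters, 4.15 in introns and 4.11 between genes.

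**Figure D3:**
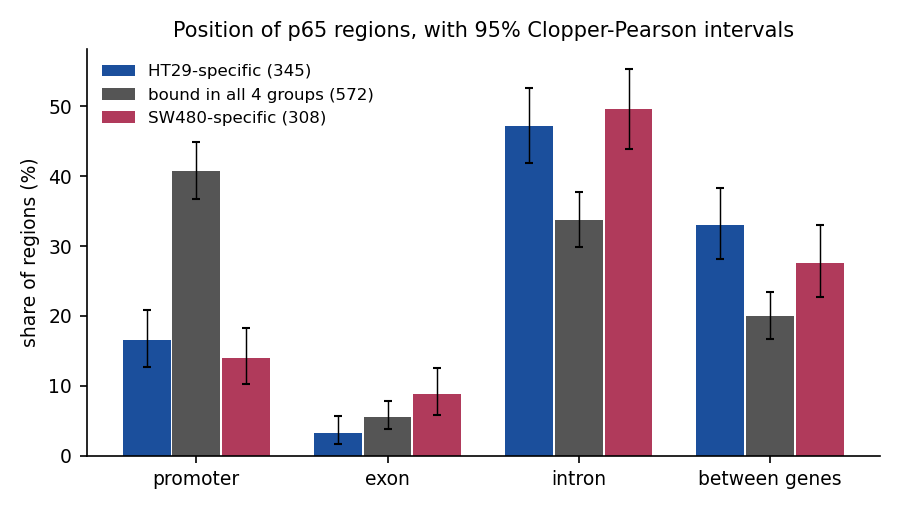
Share of regions (%) in promoters, exons, introns and between genes for the 345 HT29-specific, 572 core and 308 SW480-specific regions, with bars from 0 and 95% Clopper-Pearson intervals. Promoters held 16.5% of the HT29-specific regions and 40.7% of those bound in all 4 groups.

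Most of the regions held the p65 site itself. Motifs were searched as exact matches on either strand in 200 bp about the summit, and the same windows 1 kb to either side served as flanks. The κB consensus was matched in 242 of 345 (70.1%, 65 to 74.9%) against 3.33% of flanks (2.12 to 4.96%), 81.5% of core regions (78.0 to 84.6%), 59.1% of SW480-specific regions (53.4 to 64.6%) and 62.6% of all regions. Outside promoters the intervals of the HT29-specific (71.5%, 65.9 to 76.7%) and core regions (76.7%, 71.8 to 81.1%) overlapped, and in promoters the shares were 63.2% and 88.4%. The match lay near the summit, at a median of 18 bp, and within 30 bp in 75.6% of the regions that had 1. At least 2 matches, which may overlap, were found in 78 regions (22.6%), against 32.3% of core, 20.1% of SW480-specific and 20.1% of all regions. Among the κB words, GGGACTTTCC was found in 5.22% of HT29-specific, 10.1% of core and 5.19% of SW480-specific regions. The most frequent word was GGAATTTCCC, in 36 regions (10.4%) against 8.22% of core and 5.84% of SW480-specific regions, and 10 of the 36 belong to the shared sequence described below. Regions with a κB match had a median HT29 signal of 4.30, and the 103 without had 3.97.

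AP-1, the family of FOS and JUN proteins that stress and growth signals activate, was searched as TGANTCA. It was matched in 62 of 345 (18.0%, 14.1 to 22.4%), against 6.67% of flanks, 21.7% of core, 23.7% of SW480-specific and 16.5% of all regions, and no match overlapped a κB match. Outside promoters it was in 17.7% of HT29-specific (13.5 to 22.6%) and 28.9% of core regions (24.1 to 34.1%), with intervals apart, and in promoters in 19.3% (10.0 to 31.9%) and 11.2% (7.42 to 15.9%), where they overlapped. Among the 146 regions that stayed without HT29 replicate 1, 17.1% held it (11.4 to 24.2%). It was found in 33 of the 103 regions without κB (32.0%) and in 12% of those with κB. Neither motif was found in 70 regions (20.3%), PTGS2 and NXT2 among them. NXT2 has 2 matches to the next motif.

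C/EBP proteins act with NFκB in inflammation and in epithelial and myeloid cells, and were searched as TTGCNNAA. A match was found in 62 of 345 HT29-specific regions (18.0%, 14.1 to 22.4%), against 8.84% of flanks (6.83 to 11.2%), 7.34% of core (5.34 to 9.80%), 8.12% of SW480-specific (5.32 to 11.7%) and 8.21% of all regions. The interval at the summits lay above those of flanks and of both other sets, and no match overlapped a κB match. Outside promoters the shares were 18.4% (14.1 to 23.4%), 9.44% (6.55 to 13.1%) of core and 9.06% (5.89 to 13.2%) of SW480-specific regions. Among the regions that stayed when HT29 replicate 1 was left out, 21.9% held it (15.5 to 29.5%, 146 regions), and among the 160 not bound in SW480 by the relaxed limits 17.5% (12 to 24.3%). Of the 62 regions with C/EBP 54.8% held κB, and of the others 73.5%, a difference that was not tested. Their HT29 medians were 4.26 and 4.13. EHF, NXT2, KCTD1, SGK1 and HLF were among the regions with a match.

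Of the further motifs, NFAT (TGGAAAA) was matched in 13.9% (10.4 to 18.0%) against 5.94% of flanks, 5.59% of core and 9.09% of SW480-specific regions, with 13 of its 63 matches inside or across a κB match. Outside promoters the NFAT intervals of the HT29-specific (13.9%, 10.1 to 18.4%) and core regions (8.26%, 5.56 to 11.7%) overlapped. The GATA motif (AGATAAG) was in 7.25% (4.74 to 10.5%) against 3.33% of flanks, 1.05% of core and 1.62% of SW480-specific regions, and 8 of its 25 regions belong to the shared sequence described below. Grainyhead proteins are factors of epithelia, and their motif (AACNNGTT) was in 6.67% (4.27 to 9.84%) against 3.91% of flanks, 2.10% of core and 1.95% of SW480-specific regions. Outside promoters it was in 7.29% (4.57 to 10.9%) and 3.54% of core regions (1.84 to 6.10%), again with overlap, while GATA was in 6.25% (3.75 to 9.70%) and 1.77% (0.652 to 3.81%), where the intervals overlapped narrowly. The reverse held for motifs that were more frequent in SW480: RUNX (TGTGGTT) was in 5.51% of HT29-specific and 15.3% of SW480-specific regions, and TCF (ATCAAAG), the partner of β-catenin, in 2.03% and 10.1%. KLF and SP (GGGCGGGG) was in 1.74%, against 16.6% of core regions, and outside promoters in 1.04% against 6.19%. The shares for FOXA (TGTTTAC), 8.70%, 7.34% and 7.14% in HT29-specific, core and SW480-specific regions, differed by less than their intervals. In all, 21 motifs were searched.

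**Figure D4:**
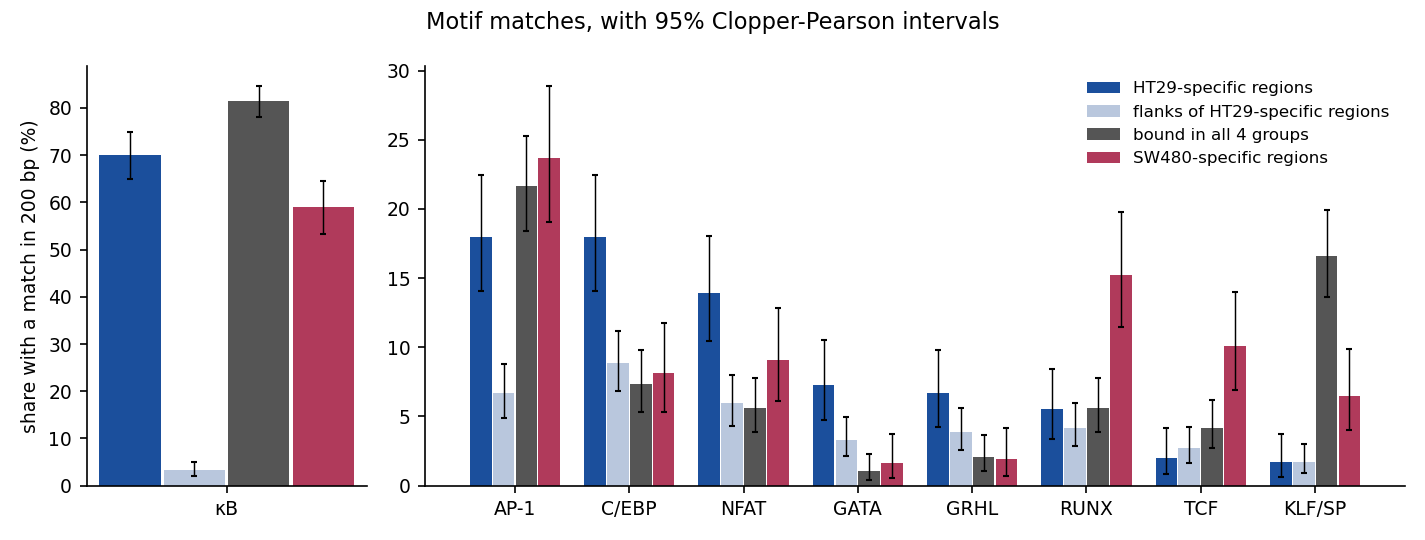
Share of regions (%) with a motif match in 200 bp at the summit of HT29-specific, core and SW480-specific regions, and in the flanks of the HT29-specific regions, with bars from 0, 95% Clopper-Pearson intervals and a separate axis for κB. C/EBP was matched in 18.0% of HT29-specific regions and in 7.34% to 8.84% of the other 3 sets drawn, and RUNX in 15.3% of SW480-specific regions.

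Part of the regions were copies of repeated sequence. Aligned to each other over at least 80 bp, 66 of the 345 (19.1%, 15.1 to 23.7%) resembled another p65 region, against 9.09% of core (6.86 to 11.8%), 6.49% of SW480-specific (4.01 to 9.86%) and 20.3% of the 390 regions bound in HT29 mock alone. The groups of like regions were found after the data were seen and are described with no test, and no repeat annotation was used to name them. The largest, called family A here, took 243 of all regions and 23 of the 345, among them WFDC11 and TNFAIP8. It was not particular to a line, since 166 of its 243 regions were bound in SW480.

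A smaller group, family B, was found mostly in HT29. Of its 21 regions, 12 were HT29-specific, 6 were bound in HT29 mock alone, 1 in HT29 ERβ alone and 2 in SW480 ERβ as well, and 0 were bound in SW480 mock. Its 12 HT29-specific regions had a median identity of 89.2% and lay on 9 chromosomes, with IRAK2, FAM151B, BZW2, TMEM68, TRHR, ZBED5, LUZP2, PLAAT2, TIMELESS, LMO7 and PDE8A among the nearest genes. The genome holds 2012 copies of at least 100 bp, of which 21 (1.04%) had the summit of a region, against 1.80% of 12101 copies of family A. Of the 12, 11 had a κB match and 8 had the GATA motif. The κB word GGAATTTCCC was in 10 of the 12, all but TMEM68, which had another κB word, and PDE8A. In PDE8A, shown above, the strict consensus was not matched. With mismatches alone counted, the closest word was GGAATTTCCA, which differs by C10A, counted from 1 at the 5′ end of the word. Set beside the FAM151B copy, however, PDE8A lacks 1 G at that end of the site. The A at position 10 is thus the neighboring base, and the difference between these copies is a deletion of 1 bp.

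PDE8A was nevertheless the strongest of them. Its signal was 22.8, 10.3 and 12.9 in HT29 mock, 17.8, 7.99 and 8.37 in HT29 ERβ, 0.468, 1.33 and 1.55 in SW480 mock, and 1.16, 1.58 and 2.65 in SW480 ERβ. IRAK2, a kinase of interleukin-1 and Toll-like receptor signaling, carried its copy in an intron, at 7.83, 2.60 and 3.38 in HT29 mock, 4.90, 2.84 and 3.16 in HT29 ERβ, and 0.271 to 1.43 in SW480. The lines did not overlap at PDE8A or at IRAK2. Without families A and B, 310 regions were left, of which 68.4% held κB, 19.4% C/EBP, 11% NFAT, 7.42% the Grainyhead motif and 5.48% GATA.

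**Figure D5:**
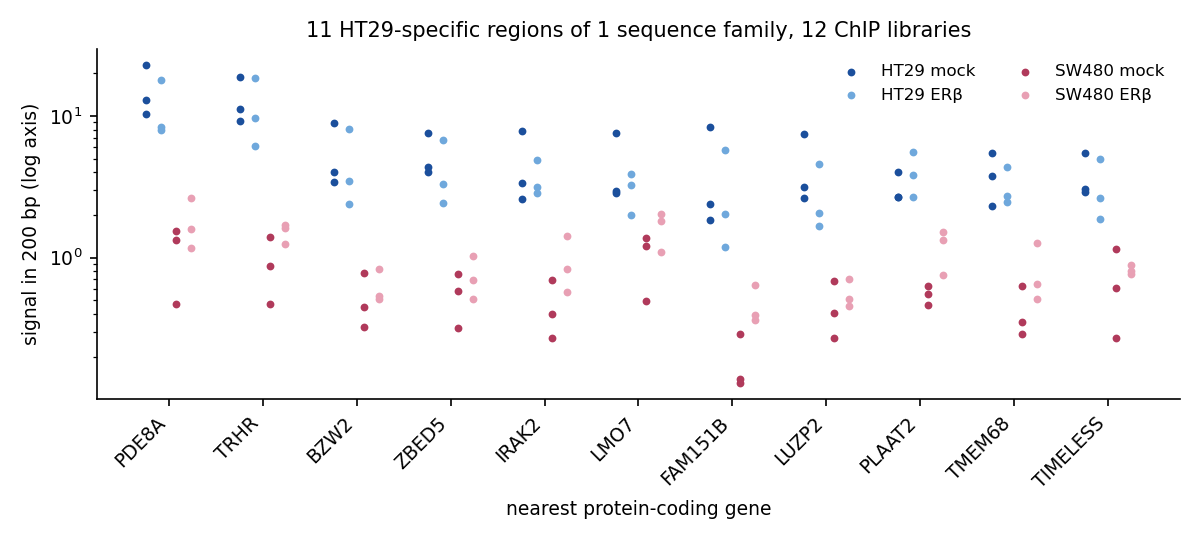
Signal in 200 bp (log axis) at 11 of the 12 HT29-specific regions of family B, named by the nearest protein-coding gene, with 1 point for each of the 12 ChIP libraries, dark for mock and light for ERβ, in HT29 (blue) and SW480 (red). PDE8A and TRHR had the highest HT29 signal (22.8 and 18.7 in HT29 mock replicate 1), and all SW480 points lie below all HT29 points at each region drawn except LMO7.

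The input tracks moved with the line as well. Over 10 kb about the summit, the log2 ratio of HT29 to SW480 input had a median of 0.21 at the HT29-specific regions, against -0.04 at core, -0.25 at SW480-specific and -0.08 at all regions, and over 100 kb 0.14, -0.01, -0.16 and -0.04. A ratio above 1, a 2-fold difference, was found at 9 of the 345 over 10 kb, LRATD2 and POU5F1B among those with the highest signal. The part of copy number in the selection of single regions was not tested.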

How the data were processed

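The 16 tracks, 3 p65 ChIP libraries and 1 input for each group, were read as the authors deposited them: coverage signal, a tag density that per the study's methods and the file headers came from unique STAR alignments to GRCh38 (hg38) and HOMER, scaled by the authors to 10 M tags and fragments of 100 bp. Stretches under 0.05 are not listed, and the track names carry a mark taken to mean that at most 1 tag was kept per position. Scaled signal allows no count test, so limma stands in for the edgeR test on tag counts that the authors ran. The ERβ inputs are described as part of another series of libraries, and the labels list the antibody and TNFα on inputs too, which were read as inputs.

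Bins were averaged and regions built as described above, in Python 3.11.15 (pandas 2.3.3, numpy 2.4.6, numba 0.67.0). The summit is the middle of the 200 bp with the highest signal, averaged over all 12 ChIP libraries, HT29 and SW480 alike, and centred in the region. Mean signal in 200 bp about it was compared between ERβ and mock within each line across all 6238 regions by limma 3.58.1 in R 4.3.3, with a trend of variance on mean, on log2(signal + 1), adjusted by Benjamini-Hochberg. Intervals are Clopper-Pearson (scipy 1.17.1) and cover the counting of regions only. Genes came from GENCODE release 44, and like sequences were found with BLAST 2.17.0. Figures used matplotlib 3.10.9. The scripts were tested on simulated data.

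Replicate numbers were taken to pair the libraries, since the correlation of deviations from the group means over all regions was above 0.1 for each pair of mock and ERβ libraries of 1 number, 0.587, 0.227 and 0.263 in HT29 and 0.312, 0.139 and 0.239 in SW480. Some libraries of different numbers in HT29 correlated as much (0.281 for mock 2 with ERβ 3, 0.188 for mock 3 with ERβ 2), and over the HT29-specific regions alone replicates 2 and 3 had 0.0971 and 0.0962, so the pairing of these replicates is weak. The labels do not say what such libraries shared.

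Members, gene lists and motifs were chosen with earlier results of these data known. Named regions are the 10 with the highest HT29 signal, up to 5 per direction with the largest called ERβ difference in HT29 and no overlap between the HT29 groups (there were none), up to 3 genes of each of 13 gene lists, the 3 leading loci, the 3 nearest the limits on each side and the 3 with the highest SW480 signal. Regions called with the block, those of family B and the NFKB1 region were named after their values were seen. Of family B, 1 region is not reported here.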

Additional observations from a re-analysis of the deposited data

Results flagged for a closer look

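The effect of ERβ on p65 signal differed between the lines at 21 of the 345 HT29-specific regions, by the interaction term of limma over the 12 ChIP libraries with Benjamini-Hochberg adjustment over all 6238 regions. In each of the 21 the signed effect was higher in SW480, and among all regions this held for 31.3%. The rule sets these shares apart, since 3230 of the 6238 regions were bound in SW480 ERβ alone and the 345 were kept low there. At the regions named next the HT29 effect was below 0, from -0.67 (KCTD1) to -0.20 (IL15), and none passed the HT29 test without the block. The SW480 effect was above 0 at each, from 0.75 (KCTD1) to 1.32 (BCL9L). The difference in log2 effect, SW480 minus HT29, was 1.65 ± 0.56 at BCL9L (SE, adjusted p = 0.0209 in limma), where SW480 rose and HT29 did not pass the test. It was 1.53 ± 0.50 at SPDYE17 (adjusted p = 0.0162 in limma), 1.47 ± 0.56 at LRATD2 (0.0372), 1.41 ± 0.45 at KCTD1 (0.0154), 1.41 ± 0.46 at MRTFB (0.0172) and 1.25 ± 0.46 at IL15 (0.0342). When each library was divided by its mean at the core regions, 2 of the 345 were called. With the replicate number as a block, 149 were called, beside 73.7% of all regions. No other named region passed the test without the block. Dixon's test of outliers was not run on groups of 3 libraries, where it has little power, and the values without single libraries are given with the results.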

How the results depend on the processing

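The number of HT29-specific regions moved with the limits: 193 with a 6-fold excess over input, 197 with a minimum mean of 3, and 160 when regions bound in SW480 by the relaxed limits were left out. Leaving out 1 replicate of a line gave 146 (without HT29 replicate 1) to 575 (without SW480 replicate 2). At least 2 libraries were still asked for, so both that remained had to pass. That by itself makes fewer bins bound in the line that lost a replicate. In HT29 the test of ERβ against mock called 0 regions, 12 with the replicate block and 0 to 4 when libraries were left out, the 4 without replicate 1 of both groups. In SW480 it called 96, 125 with the replicate block, and 10 of the 22 regions that passed a filter on low values in SW480. The choice of regions low in SW480 leaves few that pass. Of all regions, 4192 passed that filter and 2481 were called higher. The filter can be passed through the SW480 ERβ libraries alone, so a call of higher was partly fixed by it. The test called 17 after scaling to the core regions and 27 with the block and that scaling (26 higher and 1 lower), a fit added after the data were seen. It called 167 without replicate 1 of both groups, and 39 (without mock replicate 1) to 210 (without ERβ replicate 1) when libraries were left out. The share of all regions called higher moved too, and was 15.5%, 23.3%, 83%, 25.1% and 88% in these last 5 settings. The SW480 median was 0.037 after scaling. κB was matched in 61.4% in a window of 100 bp, 76.6% of regions bound in all 3 libraries of both HT29 groups, and 76.7% of those left without HT29 replicate 1, AP-1 in 9.57% in 100 bp and 23.8% in 300 bp. Promoters held 11.9% by protein-coding genes and 24.9% from 2.5 kb upstream to 500 bp downstream. The interaction call of 21 was 2 after scaling, 149 with the replicate block and 11 with both (9 larger in SW480 and 2 larger in HT29), the fits with the block added after the data were seen. Beyond what the rules fix, the cause of these changes was not tested. Of 83 results and settings, 54 stayed within the spread or within 1.5 times the count. Among the named regions alone, the block added calls in SW480 at EHF (adjusted p = 0.0357 in limma with the block, 0.0792 without), EGFR (0.0385 and 0.0811), NFAT5 (0.0387 and 0.111), PLAAT2 (0.047 and 0.0616) and, just outside the set, ANXA11 (0.0413 and 0.0884), beside those of the report in HT29. The study reports mapped reads per sample, but the tracks do not carry depth and those counts were not used here. That limits what can be read from a low signal.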
